A study of Mus musculus with 3 samples.

Results

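Beta-defensins are small secreted peptides that kill microbes and, in the male tract, coat sperm. The genes described here are the autosomal protein-coding genes of the RefSeq annotation of mouse (assembly GRCm38.p6, the assembly of mm10) whose symbol is Defb followed by digits. This rule found 42 genes among 20665 autosomal protein-coding genes: 2 on chromosome 1, 11 on chromosome 2, 24 on chromosome 8 and 5 on chromosome 14. Pseudogenes, and the protein-coding Gm15056 and Gm6040, which carry Defb names only as synonyms, were left out by the rule.

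The readout was MeDIP-seq: an antibody against methylated cytosine pulls down DNA fragments, which are sequenced, and enriched stretches are called as peaks. Epididymal adipose tissue, the fat pad that lies against the epididymis, came from male C57BL/6J mice that were 6 weeks old at the start and 16 weeks old at harvest. They were fed for 10 weeks on a normal diet (ND, fat supplying 10% of the energy), on a diet high in fat (HFD, 60%), or on the latter while drinking water that held folic acid at 20 μg/mL (FAD). There was 1 library per diet, and the labels do not say whether it came from 1 animal or a pool, so no comparison below has a replicate check or a test. The lists held 101532 peaks in ND, 135124 in HFD and 95501 in FAD, with median widths of 507, 587 and 447 bp, and read depth is unknown. A gene without a peak is one at which no stretch passed the authors' caller, which depends on depth and on the number of CpG sites as well as on methylation.

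Beta-defensin peptides fold around conserved disulphide bonds and carry a positive charge that lets them disturb bacterial membranes. Several, such as mouse Defb14, also attract immune cells through the chemokine receptor Ccr6. Defb1 is made constitutively by epithelia, Defb2 and Defb3 are made by epithelia after microbial or inflammatory stimulation, and a large share of the other genes is expressed mainly in the epididymis. The genes lie in tight clusters that grew by duplication. Methylated DNA is found mostly at CpG sites, and promoters poor in CpG sites are bound weakly by the antibody whatever their methylation.

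The promoters that could be matched to these genes were poor in CpG sites. RefSeq promoter windows of GRCm38.p6, from 250 bases before to 50 bases after the start site, were matched for 29 of the 42 genes and gave 30 windows. The 13 genes without a window were Defb1, Defb2, Defb4, Defb12, Defb14, Defb18, Defb19, Defb25, Defb34, Defb35, Defb37, Defb40 and Defb50. The 30 windows held a median of 1.5 CpG sites, with a range of 0 to 8. The 20085 windows of all autosomal protein-coding genes held a median of 14. The letters CG, which read the same on both strands, were present in 24 of the 30 windows (80%) and in 95.6% of all windows. Windows with 0 to 4 CpG sites made up 76.7% of the beta-defensin windows and 27.5% of all windows. The median GC share was 48.3% against 57.0%.

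Windows are printed below in the direction of transcription, with CpG sites in capitals. Those of Defb46 and Defb5 are shown because a peak reached them in at least 1 library. That of Defb3, their neighbour in the same cluster, is shown because it resembles them and no peak reached it. Those of Defb36 and Defb47 are shown because they hold 8 CpG sites each, as does 1 of the 2 Defb21 windows and no other window of the family, and no peak reached them either.
Defb46, chr8:19239666-19239965, plus strand: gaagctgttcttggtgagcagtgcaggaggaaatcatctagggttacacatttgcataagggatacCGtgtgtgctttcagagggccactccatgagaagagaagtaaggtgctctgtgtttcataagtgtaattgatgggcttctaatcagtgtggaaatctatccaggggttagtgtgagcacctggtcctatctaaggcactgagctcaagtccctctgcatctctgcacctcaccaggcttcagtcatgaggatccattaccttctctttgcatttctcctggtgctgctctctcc
Defb5, chr8:19247342-19247641, plus strand: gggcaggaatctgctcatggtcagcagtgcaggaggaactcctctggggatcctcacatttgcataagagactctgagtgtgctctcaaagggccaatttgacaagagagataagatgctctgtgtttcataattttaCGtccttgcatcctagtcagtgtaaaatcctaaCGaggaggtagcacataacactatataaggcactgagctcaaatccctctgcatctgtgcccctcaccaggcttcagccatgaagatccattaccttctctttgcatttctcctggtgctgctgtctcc
Defb3, chr8:19293111-19293410, plus strand: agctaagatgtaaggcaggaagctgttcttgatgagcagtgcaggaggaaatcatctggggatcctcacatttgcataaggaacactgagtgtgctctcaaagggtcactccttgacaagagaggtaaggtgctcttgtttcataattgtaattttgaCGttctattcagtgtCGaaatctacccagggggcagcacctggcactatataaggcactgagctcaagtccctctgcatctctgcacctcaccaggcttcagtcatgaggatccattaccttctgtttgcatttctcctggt
Defb36, chr2:152604077-152604376, plus strand: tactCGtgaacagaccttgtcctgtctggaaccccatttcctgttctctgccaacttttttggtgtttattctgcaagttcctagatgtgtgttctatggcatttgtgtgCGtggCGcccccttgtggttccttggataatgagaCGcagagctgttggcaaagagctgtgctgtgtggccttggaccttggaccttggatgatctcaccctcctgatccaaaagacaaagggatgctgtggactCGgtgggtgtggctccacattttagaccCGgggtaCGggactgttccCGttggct
Defb47, chr14:62997827-62998126, plus strand: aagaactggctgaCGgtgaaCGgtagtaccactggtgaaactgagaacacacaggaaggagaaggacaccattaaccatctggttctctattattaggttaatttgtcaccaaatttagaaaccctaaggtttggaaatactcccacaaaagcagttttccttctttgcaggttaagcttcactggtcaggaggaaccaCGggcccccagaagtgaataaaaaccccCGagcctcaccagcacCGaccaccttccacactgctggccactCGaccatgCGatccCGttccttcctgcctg

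Global alignment gave 78.6% identity between the Defb46 and Defb5 windows, 78.9% between Defb46 and Defb3 and 79.1% between Defb5 and Defb3. The highest identity among all beta-defensin windows on the same chromosome was 87.9%, between Defb3 and Defb8. The Defb8 window held no CpG site, so its pair with Defb3 could not share one. The windows of the other pairs held only 1 or 2 sites each, and none of these lay at the same aligned position. Of the CpG sites shown, the 1 of Defb46 begins at -184 bases from the start site, the 2 of Defb5 at -112 and -79, and the 2 of Defb3 at -92 and -77. The letters ATTTGCAT, searched on both strands (ATGCAAAT in reverse) and chosen after the sequences were read, occur in the windows of Defb46, Defb5, Defb3, Defb6, Defb26 and Defb9. These are 6 of 30 beta-defensin windows (20%) and 1.67% of all windows, and 4 of the 6 belong to the neighbouring copies on chromosome 8. A match of letters in a window shows no binding.

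**Figure D1:**
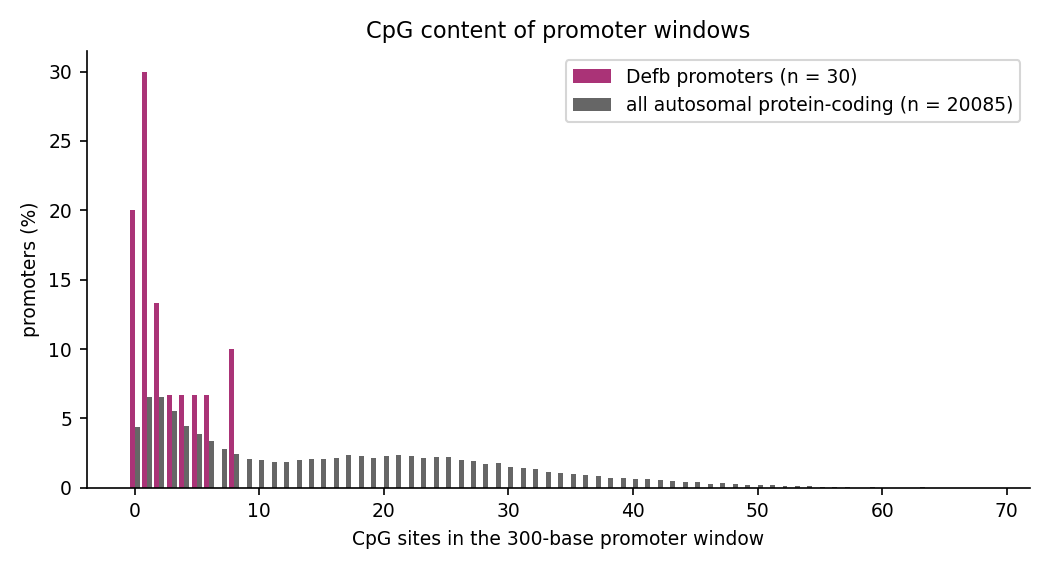
Distribution of CpG sites per 300-base promoter window, as the percent of windows with each number of sites, for 30 windows of beta-defensin genes and 20085 windows of all autosomal protein-coding genes. No beta-defensin window held more than 8 sites, while the median over all windows was 14.

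Fewer beta-defensin genes than genes at large had a peak in fat. A gene was counted when at least 1 peak overlapped its record or the 2000 bp on either side by 1 bp or more. In ND, 12 of 42 genes (28.6%) had a peak, while 66.6% of all autosomal protein-coding genes did. In HFD the count was 17 of 42 (40.5%), against 73.6% of all genes. In FAD it was 12 of 42 (28.6%), against 63.9% of all genes. Beta-defensin genes are short, with a median record of 3215 bp against 17491 bp for all genes. Among the 14075 genes whose records lie between the shortest and the longest beta-defensin record, 698 to 35066 bp, the shares were 55.1% in ND, 63.8% in HFD and 51.6% in FAD. That range still had a median record of 9777 bp, so it matches the beta-defensin genes in length only in part. With the 95501 highest-scoring peaks of each list, 10 beta-defensin genes were marked in the ND list, 14 in that of HFD and 12 in that of FAD, and the shares of all genes were 65.6, 67.0 and 63.9%.

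**Figure D2:**
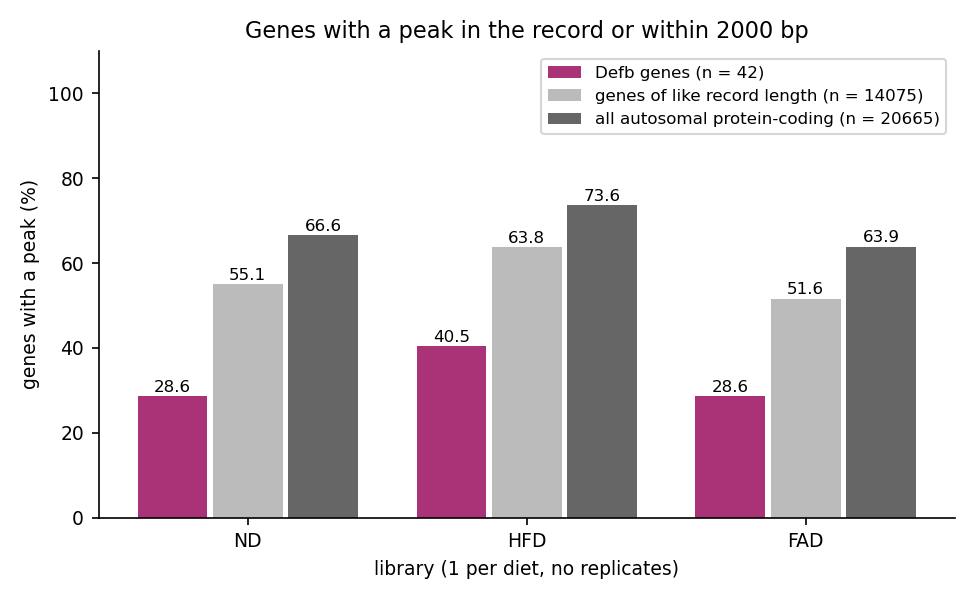
Percent of genes with at least 1 peak in the record or within 2000 bp, by library, for 42 beta-defensin genes, 14075 genes with records in the same length range and 20665 autosomal protein-coding genes. In each library the beta-defensin share, 28.6, 40.5 and 28.6%, was the lowest of the 3 bars.

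Peaks were also fewer per length of sequence. The windows of the 42 genes held 13 peaks in ND, 20 in HFD and 13 in FAD, or 3.40, 5.22 and 3.40 peaks per 100 kb. All genes held 4.69, 6.48 and 4.31 peaks per 100 kb in the same order, and genes of like record length 6.18, 8.17 and 5.56. Peaks covered 1.82% of the beta-defensin windows in ND, 3.18% in HFD and 1.90% in FAD. They covered 2.53, 4.06 and 2.03% of the windows of all genes and 3.33, 5.19 and 2.60% of those of like record length. The beta-defensin value was the lowest of the 3 in each library, and in FAD it was nearest to that of all genes.

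Over whole cluster spans the autosomal peak density lay within the counting error. Spans were drawn from the first to the last member, and genes more than 500 kb apart were split, which gave 6 spans of 963.8 kb in all. They held 31 peaks in ND, 40 in HFD and 32 in FAD. These are 32.2 peaks per Mb in ND (exact Poisson 95% interval 21.9 to 45.7), 41.5 in HFD (29.6 to 56.5) and 33.2 in FAD (22.7 to 46.9). The autosomes, from the first to the last gene record of each chromosome, held 39.3, 53.3 and 37.0 peaks per Mb, which lies inside the interval in every library. The intervals cover counting error only. With the sequence between Defb7 and Defb1 added to the spans, the densities were 45.1 (38.1 to 53.0), 47.9 (40.6 to 56.0) and 47.6 (40.4 to 55.7) peaks per Mb. ND and FAD then lay above the autosomal density and HFD below it, and in FAD the autosomal value fell outside the interval. Of the span peaks, 7 of 31 in ND, 12 of 40 in HFD and 8 of 32 in FAD overlapped a beta-defensin record, and 18, 20 and 19 lay more than 2000 bp from any. The records with their flanks made up 36.9% of the span sequence and held 41.9% of its peaks in ND, 50% in HFD and 40.6% in FAD.

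Peaks lay near the genes to different extents in the larger clusters. On chromosome 2 (152459055 to 152623053, 11 genes), all 7 ND peaks, 7 of 8 HFD peaks and all 4 FAD peaks were in or within 2000 bp of a beta-defensin gene, and such windows made up 47.2% of the span. In the first chromosome 8 group (18974914 to 19497775, 14 genes from Defb40 to Defb7), 14 of 17 ND peaks, 14 of 19 HFD peaks and 15 of 20 FAD peaks lay farther away. There the windows made up 25.5% of the span and held 17.6, 26.3 and 25% of the peaks, a share near that of the sequence. The highest-scoring region of any cluster was of this kind. It spanned chromosome 8, 19395501 to 19397629, between Defb3 and Defb8, with scores of 491 in ND, 519 in HFD and 480 in FAD. Scores here are the authors' own peak scores, at least 50 in each list and of unstated scale, and they rank peaks only within a list.

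**Figure D3:**
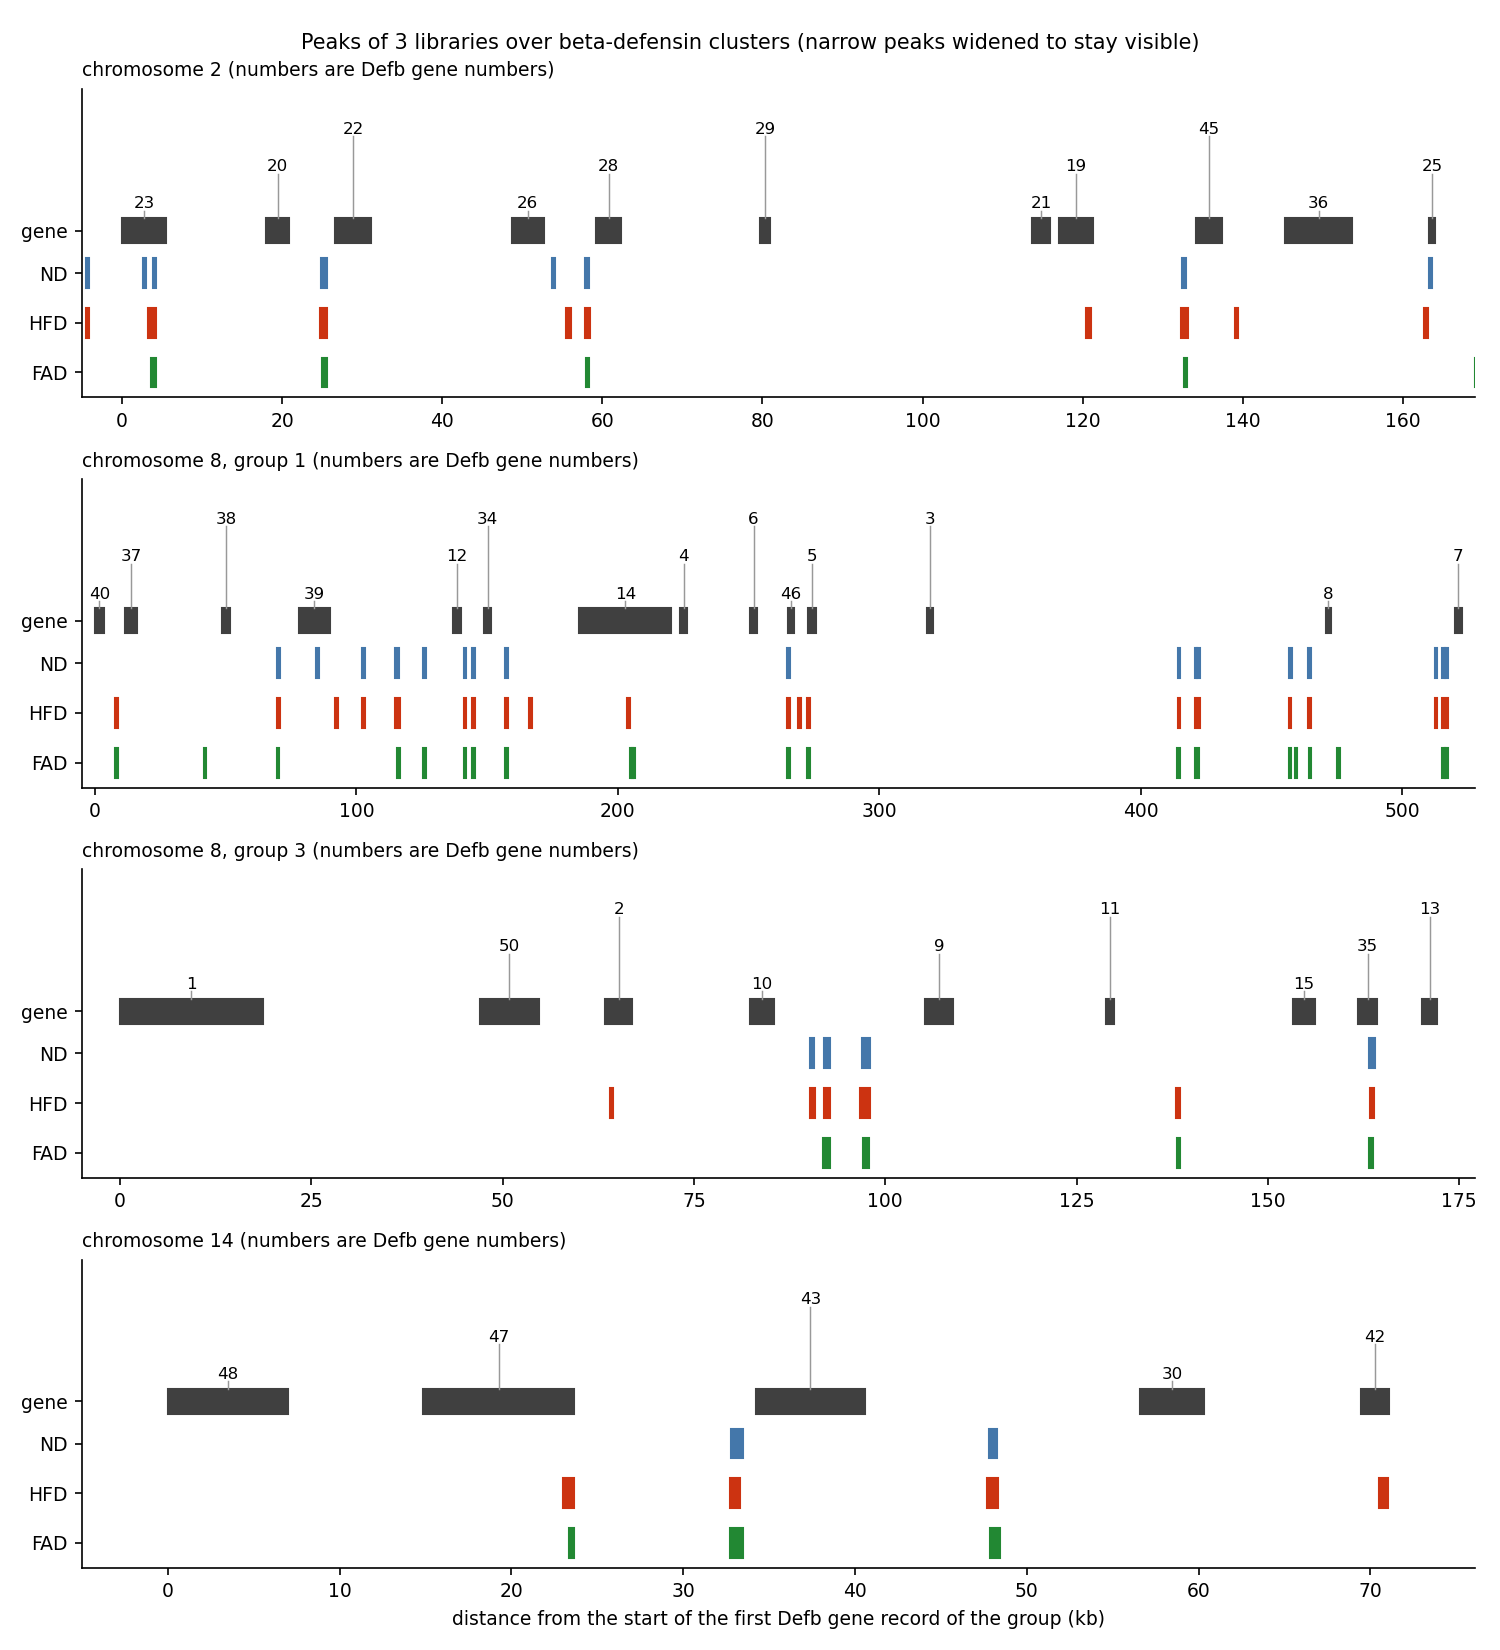
Position of peaks from ND, HFD and FAD along the 4 groups with at least 5 beta-defensin genes, as distance in kb from the start of the first gene record, with records as dark boxes. Peaks narrower than a fixed share of the panel are drawn wider than they are. Long empty stretches surround Defb3 in the first chromosome 8 group and Defb1 with Defb50 in the third.

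The third chromosome 8 group (21776555 to 21948622, 9 genes from Defb1 to Defb13) had peaks at 1 gene in ND, 2 in HFD and 1 in FAD. On chromosome 14 (62977524 to 63048606, 5 genes) the counts were 1, 3 and 2, and on chromosome 1 (18236402 to 18265138) Defb41 was marked in all 3 libraries and Defb18 in none. Defb33 stood alone at chromosome 8, 20892667 to 20897723. Between Defb7 and Defb33, where no gene of the rule lies, 1395 kb held 87 ND, 83 HFD and 97 FAD peaks. These are 62.4, 59.5 and 69.5 peaks per Mb, with intervals of 49.96 to 76.9, 47.4 to 73.8 and 56.4 to 84.8. The longest list, HFD, had the fewest peaks in this interval, but the 3 intervals overlap. By bases under peaks HFD was the highest, with 4.30% of the sequence against 3.72% in ND and 3.75% in FAD. The next stretch, 879 kb between Defb33 and Defb1, held 31.9, 37.5 and 28.4 peaks per Mb in ND, HFD and FAD. These densities lay below the autosomal 39.3, 53.3 and 37.0. The sources used here do not say how reads from near-identical copies were placed.

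The regions with the highest scores were shared by the 3 diets. Joining overlapping peaks gave 26 regions in the windows of 19 genes. Of these regions, 9 held a peak from every library, 2 from HFD and FAD, and 15 from 1 library (9 from HFD, 4 from ND and 2 from FAD). The 15 single-library regions had scores between 50.5 and 103. The same split over all autosomal regions is not given here, and the HFD list was the longest, so these counts have no background. Each of the 9 shared regions belonged to a different gene, and these 9 genes are 21.4% of the members, where 59.4% of all genes had a peak in all 3 libraries.

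Defb41, an epididymal gene on chromosome 1, had the highest-scoring region of the family at 18254128 to 18255205, inside its record, with the ND peak centred 10515 bp downstream of its start site. Its scores were 382 in ND, 368 in HFD and 376 in FAD, at the 94.6th, 94.0th and 95.8th percentiles of the lists. The peaks were 992, 1007 and 975 bp wide, and each overlapped the others. Its promoter window, 300 bases without a CpG site, was reached by no peak. A second HFD peak (score 50.5) lay in the record, with the nearest ND peak 1013 bp away.

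On chromosome 2 the shared regions were at Defb23, Defb22, Defb28 and Defb45. Defb22 encodes a sperm surface protein, the mouse counterpart of the primate sperm coat defensin DEFB126. Its region, 152483775 to 152484716, lay past the 3′ end of the gene by 950 bp or more, with scores of 202 in ND, 296 in HFD and 207 in FAD (percentiles 81.8, 90.6 and 85.3) and widths of 768, 942 and 640 bp. The Defb23 region at 152462302 to 152463340 lay inside the record with scores of 115, 343 and 223 (percentiles 57.9, 93.0 and 87.2), and its peak spanned 318 bp in ND, 1039 bp in HFD and 559 bp in FAD. A second ND peak in the Defb23 record (152461646 to 152462107, score 51.1) ended 195 bp from the HFD peak. At Defb23 and Defb22 alike, the HFD peak was the widest of the 3 and ranked highest in its list. At Defb28 the region, 152516869 to 152517487, lay 818, 768 and 846 bp upstream of the record in ND, HFD and FAD, with scores of 142, 166 and 220 (percentiles 68.6, 74.5 and 86.9) and widths of 501, 619 and 436 bp. At Defb45 it lay 3′ of the gene at 152591345 to 152592165, with scores of 51.0, 208 and 58.5 and widths of 475, 821 and 467 bp. The ND and FAD peaks of Defb45 were at percentiles 1.33 and 10.3 of their lists and the HFD peak at percentile 82.0. Defb45 had a further HFD peak in its upstream flank (152598082 to 152598408, score 84.3), with the nearest ND peak 6134 bp away.

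On chromosome 8 the shared regions were at Defb12, Defb46 and Defb35. The Defb12 region, 19116079 to 19116773, lay in the flank with scores of 227 in ND, 195 in HFD and 145 in FAD (percentiles 85.4, 80.1 and 72.5) and widths of 365, 448 and 695 bp. The Defb46 region, 19239853 to 19240417, covered the start of the gene with scores of 76.7, 104.5 and 214 (percentiles 32.1, 52.6 and 86.1). Defb12 thus ranked highest in ND and Defb46 in FAD. Of the Defb46 promoter window printed above, the peaks covered the last 40 bases in ND, 113 in HFD and 57 in FAD, and none of these stretches held a CpG site. The rest of each peak, 348, 452 and 382 bp, lay downstream. The Defb35 region, 21939786 to 21940549, lay inside the record with scores of 134, 337 and 220 (percentiles 65.7, 92.7 and 86.8) and widths of 764, 515 and 455 bp. On chromosome 14, Defb43 had a region upstream of its record by 795, 939 and 761 bp (63010259 to 63011010) with scores of 98.3, 134 and 105 (percentiles 48.7, 65.1 and 55.3) and widths of 688, 574 and 737 bp. With 1 library per diet, none of these differences in rank or width has an error.

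**Figure D4:**
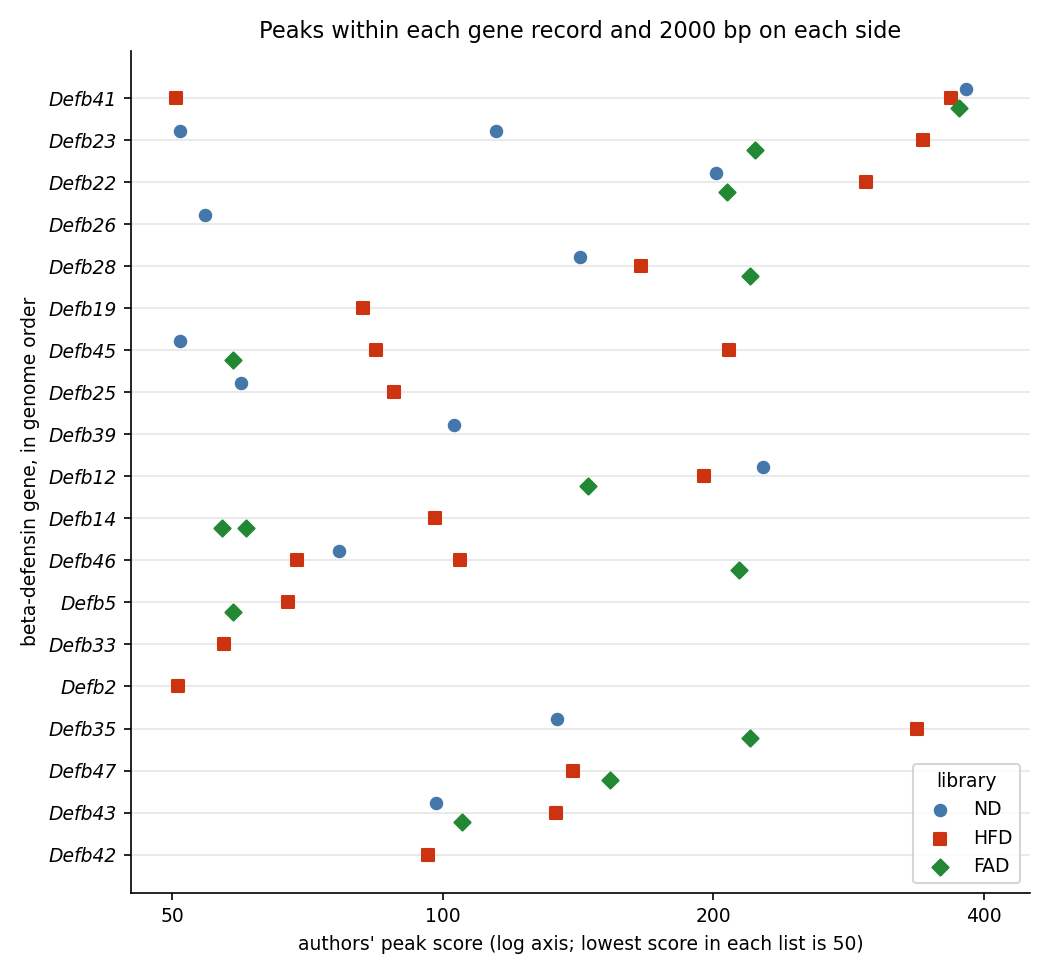
Authors' score of every peak in or within 2000 bp of the 19 beta-defensin genes with a peak, on a log axis, by library. Of the peaks found in 1 library only, none scored above 103, while Defb41 carried peaks between 368 and 382 in all 3 libraries.

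HFD set against ND addresses dietary fat. A peak in HFD and none in ND was found at 7 of 42 genes (16.7%), where 8.89% of all genes and 11.2% of those of like record length had this pattern. The reverse held at 2 genes (4.76%), where 1.87% of all genes and 2.52% of those of like length did. Either pattern can arise only at a gene that lacks a peak in 1 library, and beta-defensin genes lacked peaks more often. An ND peak was present at 28.6% of them, against 66.6% of all genes. The shares are not adjusted for this, so they do not show a gain particular to these genes. The same limit holds for the FAD comparisons below. The HFD list was 1.33 times as long as the ND list. With the 95501 highest-scoring peaks of each library, the counts were 5 (Defb19, Defb45, Defb14, Defb47 and Defb42) and 1 (Defb39), against 5.79% and 4.39% of all genes. With the top 50% of each list, a peak in HFD and none in ND was found at 4 genes (9.52%), below the 11.4% of all genes. These were Defb45, Defb46, Defb47 and Defb43. Only Defb47 was among the 7, and the others had a peak in every library of the full lists. With flanks of 5000 bp the pattern held at 10 genes (23.8%), against 8.22% of all genes. With those flanks 38.1% of members and 73.8% of all genes had an ND peak. Without flanks the pattern held at the same 7 genes (16.7%), against 8.37% of all genes. Among the 7 genes, the highest HFD score was 139, at percentile 67.1 of its list.

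The 7 genes were Defb47 and Defb42 on chromosome 14, Defb19 on chromosome 2, and Defb14, Defb5, Defb33 and Defb2 on chromosome 8. Defb47 had an HFD peak near the 3′ end of its record (63000542 to 63001171, 630 bp, score 139), and the nearest ND peak lay 9118 bp away. The peak did not reach its promoter window, printed above. Defb14, which encodes the mouse counterpart of human beta-defensin 3, had an HFD peak (19178697 to 19179487, 791 bp, score 98.0, percentile 48.6) inside its long record, with the nearest ND peak 46077 bp away. Defb42 had an HFD peak (63048011 to 63048526, 516 bp, score 96.2, percentile 47.6) inside its record, with the nearest ND peak 22196 bp away. These 3 peaks scored highest among the 7 genes, but their distances to an ND peak overlap with those of the other genes.

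The other 4 scored lower. Defb19, also known as Tdl, had an HFD peak (152579524 to 152580099, 576 bp, score 81.5, percentile 36.8) inside its record, and the nearest ND peak was 11375 bp away. Defb5 had one over its start site (19247575 to 19247951, 377 bp, score 67.2, percentile 23.1), with ND 7262 bp away. Defb33 had one at the end of its record (20897205 to 20897887, 683 bp, score 57.1, percentile 10.7), with ND 13621 bp away. The lowest was that of the inducible Defb2 (21840538 to 21840988, 451 bp, score 50.8, percentile 1.22), with ND 25758 bp away. The Defb33 and Defb2 peaks were not among the 95501 highest-scoring HFD peaks, nor was the Defb5 peak.

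In the reverse direction, Defb39, at chromosome 8, 19059734 to 19060276, had an ND peak with score 103 (543 bp, percentile 51.1) inside its record and the nearest HFD peak 6706 bp away. Defb26, on chromosome 2, had an ND peak (152512814 to 152513131, 318 bp, score 54.4, percentile 5.43) in its upstream flank, with an HFD peak 1369 bp from it and outside the window. Both genes are thus near an HFD peak that the 2000 bp window left out, at 2061 bp from the Defb39 record and 2764 bp from that of Defb26. Defb25 counted as marked in both libraries, but its ND peak (152622273 to 152622662, 390 bp, score 59.6, percentile 12.0) and its HFD peak (152621729 to 152622151, 423 bp, score 88.4, percentile 42.3) did not overlap and lay 122 bp apart.

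FAD set against HFD addresses folic acid on 1 diet. A peak in FAD and none in HFD was found at 0 of 42 genes, where 1.38% of all genes and 1.81% of those of like length had this pattern. A peak in HFD and none in FAD was found at 5 genes (11.9%), against 11.1% of all genes and 14.0% of those of like length, so the share is near the background. It was 19.0% against 10.5% of all genes with flanks of 5000 bp, and 2.38% against 13.3% with the top 50% of each list. The 1 gene in the latter case was Defb45, which had a peak in every library of the full lists. The 5 genes were Defb19, Defb25, Defb33, Defb2 and Defb42, and for these the nearest FAD peak lay 11563, 5901, 13612, 27466 and 22044 bp from the HFD peak. With lists of equal length the counts were 1 (Defb5) and 3, against 3.75% and 6.82% of all genes.

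The comparison of FAD with ND shares its libraries with the other comparisons. Defb14, Defb5 and Defb47 had a peak in FAD and none in ND (7.14% of members, 4.09% of all genes and 4.94% of those of like length). Defb25, Defb26 and Defb39 had the reverse (7.14%, 6.78% and 8.48%). With lists of equal length, the patterns held at 4 genes (4.58% of all genes) and 2 genes (6.25% of all genes). Defb5 had a region in both high-fat libraries. Its HFD peak (score 67.2) and its FAD peak (19247584 to 19248051, 468 bp, score 58.4, percentile 10.2) overlapped at its start site and covered the last 67 and 58 bases of the promoter window printed above, again without a CpG site. At Defb47 the FAD peak (63000852 to 63001156, 305 bp, score 154, percentile 74.98) lay inside the HFD peak (630 bp). At Defb14 the marks were not the same region. Its 2 FAD peaks (19179768 to 19180297 and 19180514 to 19181071, scores 60.4 and 56.75, percentiles 13.1 and 8.13) lay 281 and 1027 bp beyond the HFD peak.

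No gene was marked in FAD alone or in ND and FAD without HFD, where 0.905% and 0.474% of all genes were. In HFD alone stood Defb19, Defb33, Defb2 and Defb42 (9.52% of members, 5.71% of all genes), and in ND alone Defb26 and Defb39 (4.76% and 1.40%). These shares too are not adjusted for the members' more frequent lack of a peak.

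The largest set, 23 of 42 genes (54.8%), had no peak in any library, where 23.6% of all genes had none. It held the epithelial genes Defb1, Defb3 and Defb4, the muscle-expressed Defb6, and Defb7, Defb8, Defb9, Defb10, Defb11, Defb13, Defb15, Defb34, Defb37, Defb38, Defb40 and Defb50 on chromosome 8. It also held Defb20, Defb21, Defb29 and Defb36 on chromosome 2, Defb30 and Defb48 on chromosome 14, and Defb18 on chromosome 1. The nearest peak of any library lay 2677 to 45353 bp from these records, with a median of 7076 bp. It lay within 5 kb for 8 genes, between 5 and 10 kb for 8, and beyond 10 kb for 7. Just outside the window were Defb7 (2677 bp) and Defb8 (2726 bp), and just inside it was a second HFD peak 1928 bp from Defb46.

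Defb1 and Defb3 lay farthest from any peak. The nearest peak to Defb1, the constitutive epithelial defensin, was 64616 bp away in ND, 45353 bp in HFD and 64897 bp in FAD. For Defb3 these distances were 53048, 45410 and 45310 bp. Of 20665 autosomal protein-coding genes, 207 lay at least as far from any peak as Defb1 did and 208 at least as far as Defb3. Defb3 sat in a stretch of 141 kb without a peak of any library (chromosome 8, 19248052 to 19389110), and Defb1 and Defb50 in one of 129 kb (21711940 to 21840537). Among 154484 such stretches between autosomal peaks, 0.258% and 0.381% were as long, and the median was 8.23 kb. Each stretch counts once there, although a long stretch is more likely to hold a gene. The stretches named were the longest that held a beta-defensin record. Assembly gaps and the share of uniquely mappable sequence in these stretches were not analysed here.

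A nearest peak more than 20 kb away was found for 11 of 42 genes in ND, 3 in HFD and 6 in FAD, with 8.65, 5.32 and 9.64% of all genes that far. Of genes of like record length, 11.4, 7.02 and 12.7% were. The beta-defensin shares were 26.2% in ND, above both backgrounds, and 7.14% in HFD and 14.3% in FAD, near those of like length.

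Peaks over the promoter window itself were rare here as elsewhere. Of the 30 beta-defensin windows, an ND peak reached 1 (3.33%), HFD peaks 2 and FAD peaks 2 (6.67% each). Of all autosomal protein-coding promoter windows, 2.42% were reached in ND, 3.23% in HFD and 1.99% in FAD. The 7 beta-defensin windows with 5 or more CpG sites, those of Defb29, Defb36, Defb15, Defb13, Defb47, Defb43 and the second Defb21 start, were reached in no library. Over all genes, 2.64, 3.36 and 2.28% of windows with 5 or more CpG sites were reached, so finding none among 7 is near the background. Of the 23 beta-defensin windows with 0 to 4 CpG sites, 4.35, 8.70 and 8.70% were reached. Over all genes, 1.85, 2.90 and 1.23% of such windows were. The beta-defensin shares rest on 1, 2 and 2 windows, those of Defb46 and Defb5.

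Related genes were counted with the same window, by which 66.6, 73.6 and 63.9% of all genes were marked in ND, HFD and FAD. Of 28 alpha-defensin genes (Defa with digits), which encode the antimicrobial peptides of gut Paneth cells and lie on chromosome 8, 3 were marked in the ND list, 3 in the HFD list and 2 in the FAD list. They are shorter still, with a median record of 973 bp, and held 2.16, 2.16 and 1.44 peaks per 100 kb. Defa21 and Defa22 were marked in all libraries and Defa30 in ND and HFD. Of 15 genes for other antimicrobial proteins, 9 were marked, the same 9 in every library, among them Camp, which encodes cathelicidin, Ltf (lactoferrin) and Mpo (myeloperoxidase). Lyz2, Lcn2, S100a8, S100a9, Reg3b and Reg3g had no peak. This list has a median record of 3103 bp, close to that of the beta-defensin genes, and held 9.11, 11.5 and 7.90 peaks per 100 kb.

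Of 23 other genes with epididymal expression, 8 were marked in ND, 10 in HFD and 8 in FAD (34.8, 43.5 and 34.8%). The shares of all genes were 66.6, 73.6 and 63.9%. Spag11b, an epididymal gene of the beta-defensin region, and the lipocalin gene Lcn5 had a peak in HFD alone. Adam28 had one in ND alone, Bsph1 in FAD alone, and Gpx5 in ND and FAD but not in HFD. Of the 23, 4 had an HFD peak and no ND peak, and 2 the reverse, where 8.89% and 1.87% of all genes did. These counts are not adjusted for the low share of the list that had an ND or HFD peak. Of 14 genes for receptors and inducers, 11, 12 and 11 were marked (78.6, 85.7 and 78.6%). Ccr6, the receptor for beta-defensins, had 1 ND peak, 2 HFD peaks and no FAD peak, Tlr4 and Ccr2 had none, and Il17ra had none in ND and 3 in each high-fat library. These lists were compared by their counts only.

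Peaks do not measure expression, so the cells in the tissue cannot be checked from these lists. Of 6 marker genes of epididymal epithelium, 1 was marked in ND, 2 in HFD and 2 in FAD (16.7, 33.3 and 33.3%). Crisp1, Lcn8 and Rnase10 had no peak in any library. Of 8 adipocyte markers, 3, 7 and 4 were marked (37.5, 87.5 and 50%), with Adipoq and Lep in all 3 and Fabp4 in none. Plin1, Cidec, Retn and Pparg had an HFD peak and no ND peak, with top HFD scores of 108, 57.3, 182 and 76.5. The HFD list was the longest. Of 6 leukocyte markers, 3, 5 and 3 were marked (50, 83.3 and 50%). All genes were marked at 66.6, 73.6 and 63.9% in ND, HFD and FAD. The part of cell composition in the beta-defensin counts was not tested.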

How the data were processed

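MeDIP-seq peaks of epididymal adipose tissue were analysed, with 1 library for each diet and the diets read from the labels. The authors deposited 1 list of peak positions per library, with a score for each peak, and the submitters' processing notes name build mm10. MACS appears as a prefix of the deposited peak names. Not given in the sources used here are the aligner, sequencing depth, the version, control and settings of the caller, and what the deposited score measures.

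Starts were converted to positions counted from 1. Gene records and 300-base promoter windows came from RefSeq tables of GRCm38.p6, which give no exons. Marked genes are those with at least 1 bp of a peak inside the record or the 2000 bp on each side. All 42 genes are accounted for; values are given for those marked in 1 or 2 libraries and for the 10 with the highest-scoring peaks. The members and lists were chosen with earlier results of these data known. The background of like record length was added after seeing the data. Overlap counts were equal to those of bedtools for all 20665 windows in each library, and the code was tested on simulated data. Promoters were aligned globally (match 1, mismatch -1, gap opening -2, extension -0.5). The planned protein comparison was not made, as no protein table was used here. The tools were bedtools 2.31.1, Biopython 1.88, scipy 1.17.1, pandas 2.3.3, numpy 2.4.6 and matplotlib 3.10.9 under Python 3.11.15.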

Additional observations from a re-analysis of the deposited data

How the results depend on the processing

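With 1 library per diet there is no replicate to leave out. No paired analysis was possible because each diet has 1 library and no replicate number. Taking the peak midpoint, or joining peaks within 500 bp, left all counts of genes within 1.5 times the reported ones. When each list was limited to its top 50% of peaks by score, marked genes numbered 7 in ND and 10 in HFD (50.2% and 59.2% of all genes). A peak in HFD and not in ND was found at 4 genes (11.4% of all genes) and the reverse at 1 (2.40%), HFD and not FAD at 1 (13.3%), and ND and not FAD at 1 (7.36%). Peak density over the clusters was then 18.7 per Mb in ND, 23.9 in HFD and 19.7 in FAD, against 19.6, 26.6 and 18.4 over the autosomes. With lists of equal length, ND and not HFD held at 1 gene, FAD and not HFD at 1 and HFD and not FAD at 3 (4.39, 3.75 and 6.82% of all genes). Without flanks, the ND, HFD and FAD lists marked 6, 11 and 7 genes (61.7, 68.4 and 59.3% of all genes). With 5000 bp flanks, 26 were marked in HFD and 19 in FAD (80.2% and 71.2% of all genes). HFD and not ND then held at 10 genes (23.8%, against 8.22% of all genes) and the reverse at 0 (1.84% of all genes). FAD and not HFD held at 1 gene, Defb8 (1.52% of all genes). HFD and not FAD held at 8 (19.0%, against 10.5% of all genes), and FAD and not ND at 6 (14.3%, against 4.12%). Shares with a peak in 1 library and none in another are not adjusted for the members' more frequent lack of a peak. The members' share marked in each library was below that of all genes with the top 50% of peaks, with lists of equal length and with either flank. Splitting clusters only at gaps over 2000 kb, which adds the sequence between Defb7 and Defb1, gave 45.1 peaks per Mb in ND, 47.9 in HFD and 47.6 in FAD, against 39.3, 53.3 and 37.0 over the autosomes. Of the 9 genes marked in all libraries, 8 were also marked in all with lists of equal length, 6 with the top 50% of peaks and 4 without flanks. Unknown depth limits every absence of a peak.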
